A study of Mus musculus with 288 samples.

Results

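The comparison described here is the mean 24-hour expression of the cerebellum after intermittent hypoxia (IH) against that after normoxia. It takes in all 48 cerebellum libraries of the 288 in the study, 24 from each treatment, and the 10385 of 35904 listed genes whose mean was at least 5 TPM (transcript abundance scaled to a fixed total per library, a level per transcript length) over the 48 libraries. The mice were wild-type C57BL/6J males, 8 weeks old, kept for 7 days either in room air or in oxygen that cycled between 21% and 8% during the light, inactive phase. Both groups then went into constant darkness in room air, and the cerebellum was taken on the second day of darkness, so no library comes from a mouse breathing low oxygen. Tissue was collected at 8 times 3 hours apart, from 1:30 to 22:30, with 3 replicates at each time. Crossing treatment with replicate number gives 6 sets of 8 libraries, with 1 library per time in each set. The labels do not say what a replicate number stands for beyond counting the samples of a time point.

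The cerebellar cortex is built from a very large population of glutamatergic granule cells, from Purkinje cells, which carry its inhibitory output, and from several kinds of inhibitory interneuron. Bergmann glia and other astrocytes clear glutamate and potassium around these neurons, oligodendrocytes make the myelin of the white matter, and microglia are the resident immune cells. Oxygen is sensed in all of these cells by prolyl hydroxylases, which mark the alpha subunits of the hypoxia-inducible factors (HIFs) for destruction while oxygen is present. The question asked of the data was which neuronal and glial functions differed between treatments, and whether each difference was seen in replicates 1, 2 and 3.

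Several libraries and whole sets of libraries stood apart before any gene was tested. The mean correlation of a library with the other libraries ran from 0.762 in IH replicate 3 at 1:30 to 0.955, and 0 libraries held the same values as another. Transcripts of heart muscle were present in every library, with 12 heart genes summing to between 81.9 and 14407 TPM. The median of this sum was 2898 TPM in normoxia replicate 1, 1650 in normoxia replicate 2 and 491 in normoxia replicate 3. In IH it was 669, 641 and 1282 TPM in replicates 1, 2 and 3. GC-rich genes were read lower relative to GC-poor genes in some sets than in others. When genes were cut by GC content into 5 equal groups, the mean level of the richest group minus that of the poorest, on the log2 scale and relative to the average library, had a median of −0.32 in normoxia replicate 1 and −0.32 in normoxia replicate 2. The medians of the other sets were positive, at 0.19 in normoxia replicate 3 and at 0.17, 0.22 and 0.14 in IH replicates 1, 2 and 3. The libraries of normoxia replicates 1 and 2 ran from −0.78 to −0.12, and those of the other sets from −0.16 to 0.62.

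**Figure D1:**
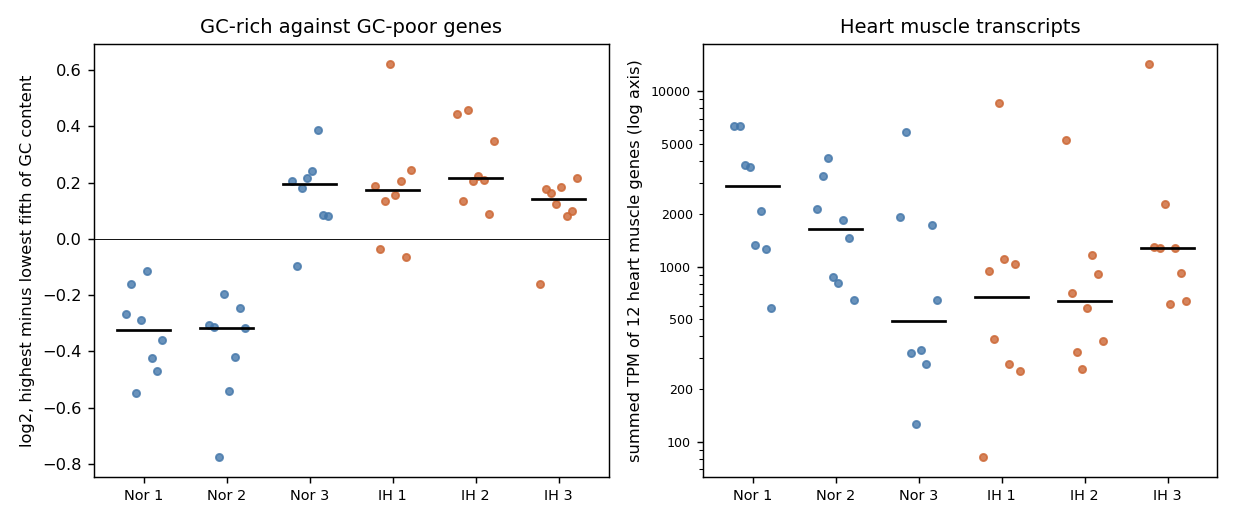
Composition of each of the 48 libraries by treatment (Nor, normoxia) and replicate number, with 1 point per library and the line at the median of 8. The left axis is the log2 level of the GC-richest minus the GC-poorest of 5 equal groups of genes, in which normoxia replicates 1 and 2 lie below 0 and the medians of the other 4 sets lie above it; the right axis is the summed TPM of 12 heart muscle genes on a log scale, with the highest library at 14407 TPM.

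The labelled tissue matched its defining genes. The granule cell receptor subunit Gabra6 ranged from 134 to 596 TPM in normoxia (median 367) and from 19.0 to 527 TPM in IH (median 317). The Purkinje cell gene Pcp2 ranged from 519 to 2847 TPM in normoxia (median 1583) and from 124 to 2515 TPM in IH (median 1957). For both genes the lowest library was IH replicate 3 at 1:30, and the treatments overlapped. The glycine transporter Slc6a5, the oligodendrocyte precursor gene Pdgfra and Neurod6, a marker of forebrain neurons, averaged under 5 TPM and were left out of the gene counts. Bulk RNA cannot tell fewer cells of a type from less RNA per cell, which holds for every marker below.

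Over all 48 libraries, 264 of the 10385 genes (2.54%) were called, that is, they passed a limma adjusted p (Benjamini-Hochberg) of 0.05 and a 1.5-fold change. Of these, 174 (1.68%) were higher and 90 (0.867%) lower in IH. The adjusted p alone was passed by 1839 genes (17.7%), so that most differences were smaller than 1.5-fold. No gene separated the 24 IH libraries from the 24 normoxia libraries. Of the 264, 132 were higher in IH at 8 of 8 collection times and 60 were lower at 8 of 8. The sign was the same in all 3 replicate numbers for 167 of the 264 (63.3%), against 3378 of all 10385 genes (32.5%). The 264 were picked by the change over all libraries, which is the mean of the 3 changes, so the larger share follows in part from the choice. The counts by collection time follow from it in the same way. Taking out 1 replicate number altered the count of called genes by more than 1.5 times, to 49 without replicate 1, to 20 without replicate 2 and to 1085 without replicate 3.

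**Figure D2:**
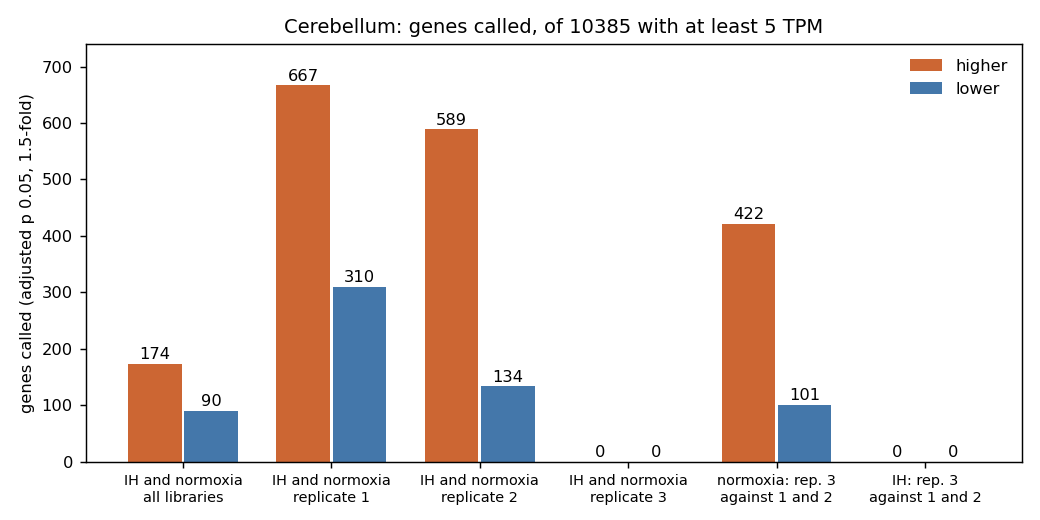
Number of genes called higher (orange) or lower (blue) of 10385, for IH against normoxia over all libraries and within each replicate number, and for replicate 3 against replicates 1 and 2 within a treatment. Replicates 1 and 2 gave 667 and 589 higher genes, replicate 3 gave 0, and normoxia replicate 3 itself differed from the other normoxia libraries with 422 genes higher and 101 lower.

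Fastk and Ndufb2 were among the 10 genes that rose most with the same sign in all 3 replicate numbers. Fastk, which encodes a kinase-like protein with a form in the mitochondrial matrix, was at 27.7 to 102.5 TPM in normoxia (median 43.6) and at 54.8 to 236 TPM in IH (median 101). The ranges overlapped, through normoxia replicate 3 and 1 library of normoxia replicate 2. The fold change was 2.11 (log2 1.07 ± 0.16 SE, limma adjusted p = 5.16e-06, n = 24 per treatment). Its log2 change was 1.38 in replicate 1, 1.51 in replicate 2 and 0.33 in replicate 3. Fastk lies on the minus strand of chromosome 5, from 24438440 to 24445287 in GRCm38.

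Ndufb2, a subunit of respiratory complex I, was at 148 to 597 TPM in normoxia (median 279) and at 285 to 828 TPM in IH (median 622). Its set medians were 205, 279 and 529 TPM in normoxia replicates 1, 2 and 3 and 679, 589 and 646 TPM in IH. In replicates 1 and 2 the 8 IH libraries were all above the 8 normoxia libraries, and in replicate 3 they overlapped. The fold change was 1.95 (log2 0.96 ± 0.16 SE, limma adjusted p = 5.00e-05). It was the member of the list of 80 nuclear-encoded respiratory chain genes called over all libraries, and the median log2 change of that list was 0.05. In replicate 3, however, 78 of these 80 genes were above 0, with a median of 0.22 against −0.03 for all genes, and none was called. The 12 heart genes were all above 0 there as well, with a median of 1.29. Without IH replicate 3 at 1:30, 78 of the 80 were again above 0, at a median of 0.22, and the heart genes had a median of 0.70. Without the 10 libraries that held over 3000 TPM of heart transcripts, 77 of the 80 were above 0, at a median of 0.27. The 12 heart genes were then all above 0 as well, at a median of 1.16.

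The other 8 of the 10 largest such rises were Tmem160, Cic, Hras, Tsfm, Taf15, Lypla2, Ccdc85b and Ccs, with log2 changes between 0.83 and 1.00. Cic is a transcriptional repressor that binds ataxin-1. Its median was 36.2 TPM in normoxia and 73.9 TPM in IH. Taf15 encodes an RNA-binding protein of the FET family, and its median went from 31.0 to 59.4 TPM. Tsfm encodes a mitochondrial translation elongation factor, with medians of 22.6 and 46.8 TPM. Ccs, the copper chaperone of superoxide dismutase, had medians of 24.2 and 47.3 TPM. Hras, a small GTPase of growth factor signalling, had medians of 124 and 251 TPM. Each of the 10 genes was higher in IH at 8 of 8 times, was called in all 56 fits that left out 1 library or 1 time, and was called with a correction of each library for GC content and length. Without replicate 2, however, Tmem160, Cic, Hras, Ndufb2, Tsfm, Lypla2 and Ccdc85b lost their calls, and without replicate 1 Hras did. Their changes in replicate 3 lay between 0.05 (Lypla2) and 0.55 (Hras), below those in replicates 1 and 2 for each of the 10.

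The upstream sequences of 3 genes are shown here, those of Fastk and Ndufb2 and of the oxygen sensor Egln2, so that the letters a HIF dimer is known to bind can be seen. Each holds the 250 bases before the RefSeq gene start in GRCm38.p6, written 5′ to 3′ on the gene's strand, with matches to ACGTG or GCGTG on either strand in capitals (CACGT and CACGC are the reverse complements). An E-box, CACGTG, contains ACGTG and is counted with it. Of all 32851 RefSeq windows of this kind, 19.6% held ACGTG, 32.4% held GCGTG and 43.8% held either. Among windows of the genes of at least 5 TPM that could be matched, the share with either was higher. The windows are chr7:27166803-27167052 (minus strand) for Egln2 with 4 matches, chr5:24445236-24445485 (minus strand) for Fastk with 1 match, and chr6:39592315-39592564 (plus strand) for Ndufb2 with 0 matches. A second RefSeq start of Egln2 has the window chr7:27165729-27165978, not printed, with 1 match.
Egln2: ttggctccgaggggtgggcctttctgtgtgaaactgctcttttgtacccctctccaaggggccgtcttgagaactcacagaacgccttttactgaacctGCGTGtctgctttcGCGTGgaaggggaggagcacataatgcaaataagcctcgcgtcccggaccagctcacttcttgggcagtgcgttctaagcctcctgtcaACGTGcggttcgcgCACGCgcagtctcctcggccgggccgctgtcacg
Fastk: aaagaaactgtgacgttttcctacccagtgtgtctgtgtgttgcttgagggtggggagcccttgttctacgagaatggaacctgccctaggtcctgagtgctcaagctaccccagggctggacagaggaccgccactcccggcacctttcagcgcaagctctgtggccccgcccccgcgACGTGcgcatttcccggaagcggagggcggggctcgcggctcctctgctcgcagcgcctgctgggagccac
Ndufb2: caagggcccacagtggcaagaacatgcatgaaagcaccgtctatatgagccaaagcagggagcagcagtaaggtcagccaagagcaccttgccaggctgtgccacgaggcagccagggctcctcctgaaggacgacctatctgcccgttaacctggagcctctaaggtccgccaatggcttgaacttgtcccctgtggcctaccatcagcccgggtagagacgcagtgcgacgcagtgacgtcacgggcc
A match describes the letters only and is not evidence of binding.

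Among the genes that fell with the same sign in all 3 replicate numbers, several were pseudogenes or copies of other genes. Ppp1ccb, annotated as a transcribed processed pseudogene, was at 17.5 to 81.3 TPM in normoxia (median 40.3) and at 5.81 to 31.6 TPM in IH (median 22.1). The ranges overlapped in replicates 2 and 3 and not in replicate 1. It fell by 1.02 on the log2 scale (± 0.13 SE, limma adjusted p = 5.14e-07) and was lower at 8 of 8 times. Reads of Ppp1ccb, H3f3c, Gstp2 and Tmsb15b2 can be shared with near-identical genes, so their values are uncertain. H3f3c was listed at 0 in 8 normoxia and 21 IH libraries, with a highest value of 121 TPM in normoxia and 0.668 TPM in IH. Its fitted log2 change of −3.83 depends on the pseudocount and was −5.14 with a pseudocount of 0.1.

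The protein-coding genes that fell included Taf9, a subunit of the general transcription factor TFIID, with medians of 15.2 TPM in normoxia and 9.31 TPM in IH. Its log2 change was −0.73 ± 0.11 SE (limma adjusted p = 6.90e-06). Renbp, the renin-binding protein, had medians of 15.6 and 9.15 TPM, and Lbhd1 had medians of 7.39 and 2.81 TPM. The changes of Lbhd1 lay between −1.29 and −0.82 in the 3 replicate numbers. Gstp2 lost its call without the 13:30, 16:30 or 22:30 libraries, with a log2 change of −0.85 that ran from −0.95 to −0.77 as 1 library or 1 time was left out. Defb35, Tmsb15b2 and Prl2c3 were also among the largest falls. Defb35 was called in 32 of 56 such fits and lost its call without single libraries of either treatment, so that its call is marginal. Outside the named genes, 4 of 8 gene models made of satellite repeats (Gm10801, Gm10717, Gm10718 and Gm10720) were called lower, a group added after its values were seen. Their 8 models had a median log2 change of −2.83 in replicate 1, −2.93 in replicate 2 and 0.75 in replicate 3, or 0.21 without IH replicate 3 at 1:30.

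Replicates 1 and 2 changed together and replicate 3 did not follow. Within replicate 1, 977 genes (9.41%) were called, 667 higher (6.42%) and 310 lower (2.99%). Within replicate 2, 723 genes (6.96%) were called, 589 higher (5.67%) and 134 lower (1.29%). The 455 genes called in both make up 46.6% of the first set and 62.9% of the second. Each of the 455 had the same direction in both replicates, although no libraries are shared. Within replicate 3, limma called 0 genes. There, an unadjusted p of at most 0.05 was reached by 236 genes, the smallest limma adjusted p was 0.960, and the 8 libraries fitted with the other 8 alone also gave 0 calls. Whether a 1.5-fold change could have been called with the spread of the replicate 3 libraries was not tested. Without IH replicate 3 at 1:30 the counts in replicates 1, 2 and 3 were 1128, 815 and 0, and without the 10 libraries that held over 3000 TPM of heart transcripts they were 493, 592 and 0. Of the 455 genes, 240 had the opposite sign in replicate 3, and the median change there was −0.01 for the 374 that were higher in replicates 1 and 2 and 0.03 for the 81 that were lower. Without IH replicate 3 at 1:30, 130 had the opposite sign, and these medians were 0.11 and −0.01.

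**Figure D3:**
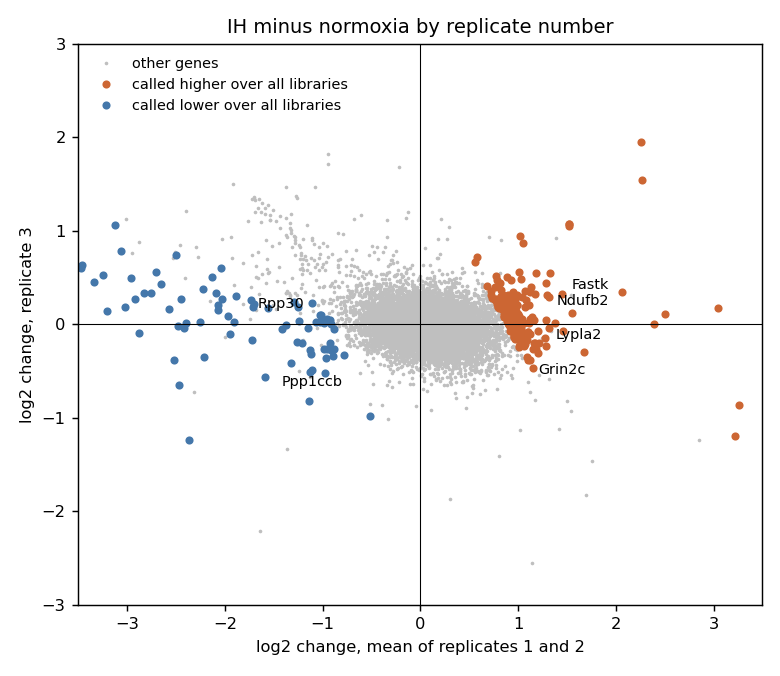
Log2 change (IH minus normoxia) of each of the 10385 genes in replicate 3 against the mean of replicates 1 and 2, with genes called over all libraries in orange (higher) and blue (lower). The called genes spread along the horizontal axis and lie around 0 on the vertical axis, and 24 genes fall outside the plotted range.

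The difference between replicate numbers was itself tested. A limma F test of the interaction called 477 genes (4.59%), and 107 of the 264 genes called over all libraries were among them. The F test called 85 genes with each library corrected for GC content and length and 86 with TPM as deposited. The change in replicate 1 differed from that in replicate 3 for 546 genes (5.26%), 414 with the larger value in replicate 1 (3.99%) and 132 with the smaller (1.27%). The change in replicate 2 differed from that in replicate 3 for 334 genes (3.22%), 303 with the larger value in replicate 2 (2.92%) and 31 with the smaller (0.299%). These differences numbered 204 and 17 with the correction, 99 and 55 with TPM as deposited, and 204 and 273 without the 10 heart-rich libraries. Between replicates 1 and 2 limma called 0 genes, with 376 at an unadjusted p of 0.05 or less. Across genes, which are not independent replicates, the changes correlated at r = 0.85 between replicates 1 and 2. Between replicates 1 and 3 and between 2 and 3 the values were −0.22 and −0.11, and without IH replicate 3 at 1:30 they were 0.01 and 0.13.

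Normoxia replicate 3 differed from normoxia replicates 1 and 2 in 523 genes (5.04%), of which 422 (4.06%) were higher and 101 (0.973%) lower, and in 185 with the correction. The contrast of replicate 3 with replicates 1 and 2 within a treatment was chosen with earlier results of these data known. IH replicate 3 differed from IH replicates 1 and 2 in 0 genes by limma, with 1398 at an unadjusted p of 0.05 or less and 2 called when the heart transcripts were added as a term. Set against 1 normoxia set at a time, the 24 IH libraries gave 911 genes (8.77%) with normoxia replicate 1, 626 higher (6.03%) and 285 lower (2.74%). With normoxia replicate 2 they gave 625 (6.02%), 468 higher (4.51%) and 157 lower (1.51%), and with normoxia replicate 3 limma called 0. With the correction these counts were 581, 228 and 1. Without the heart-rich libraries, 601 genes were called with normoxia replicate 1. These comparisons share their IH libraries. Against normoxia replicate 3, 280 genes reached an unadjusted p of at most 0.05.

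The genes with the clearest difference between replicate numbers show the pattern in single values. Lypla2, which encodes a depalmitoylating thioesterase, had set medians of 26.1, 24.8 and 63.4 TPM in normoxia replicates 1, 2 and 3, and of 65.2, 76.8 and 67.2 TPM in IH. Normoxia replicate 3 lay with the IH libraries. The log2 changes were 1.14, 1.43 and 0.05 (limma adjusted F p = 4.89e-06). Crlf2, a cytokine receptor chain, had normoxia medians of 6.63, 7.33 and 14.4 TPM and IH medians of 14.4, 15.3 and 12.6 TPM. The transcription cofactor Ldb1 had normoxia medians of 25.8, 22.9 and 48.9 TPM and IH medians of 53.2, 51.3 and 48.8 TPM. The nuclear receptor Nr2f6 had log2 changes of 0.92, 0.86 and 0.03. Rpp30, a subunit of ribonuclease P, went the other way, with medians of 68.4, 64.2 and 36.4 TPM in normoxia and of 34.0, 34.7 and 35.6 TPM in IH. Its ranges did not overlap between treatments in replicates 1 and 2, where such genes numbered 202 (1.95%) and 219 (2.11%) of all, and they overlapped in replicate 3, where no gene was free of overlap. Plagl1, an imprinted zinc finger gene, had log2 changes of −1.19, −0.85 and 0.10.

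**Figure D4:**
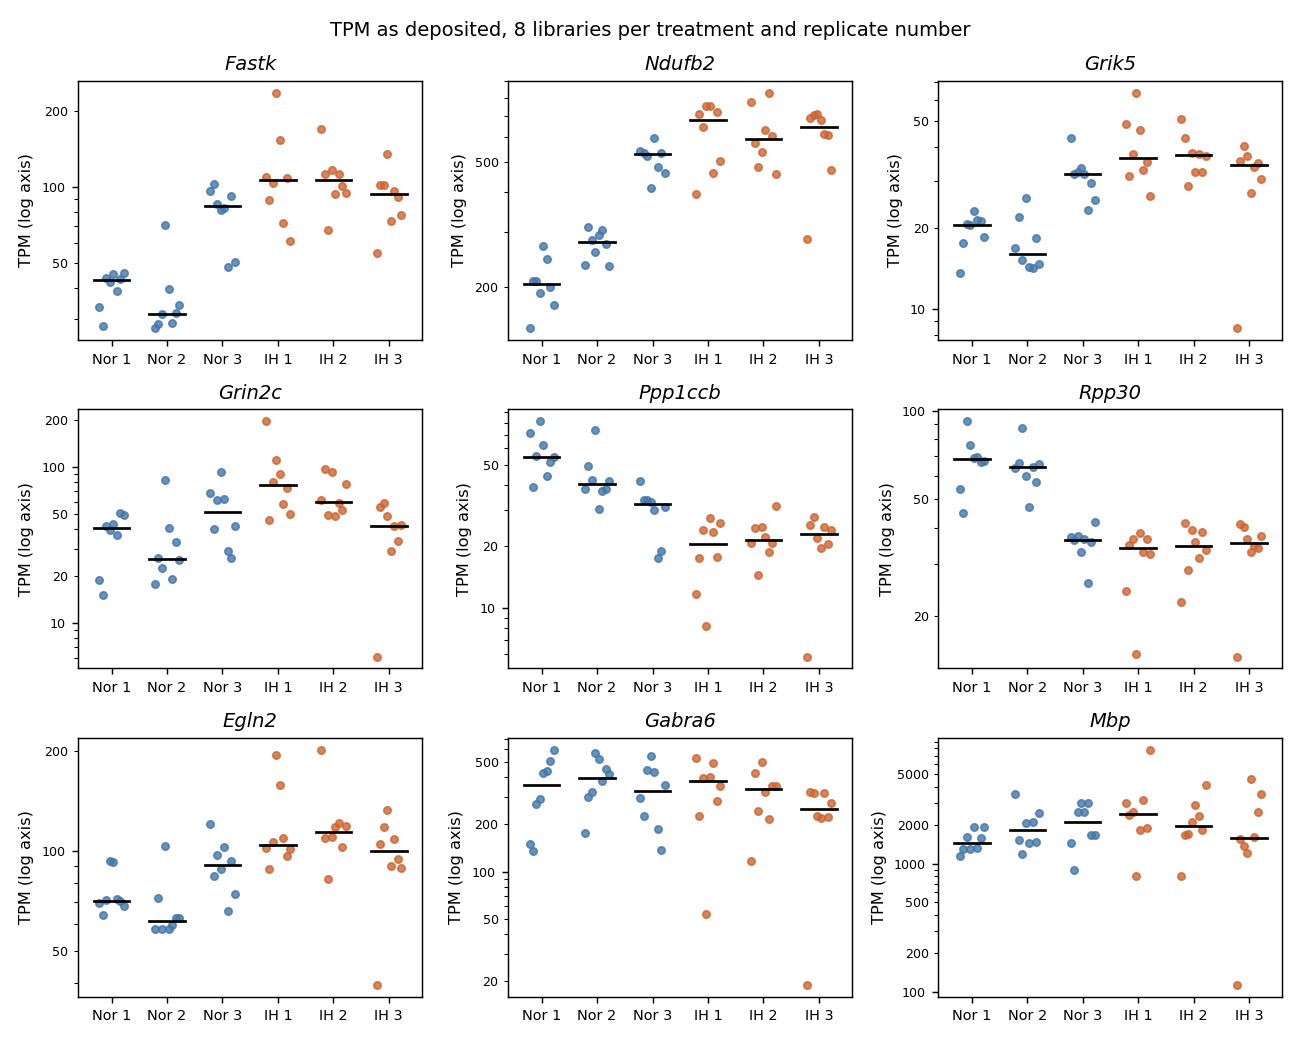
TPM of 9 genes in each library on log axes, by treatment (Nor, normoxia) and replicate number, with the line at the median of 8 libraries. For Fastk, Ndufb2, Grik5 and Rpp30 the libraries of normoxia replicate 3 lie near the IH libraries, while the sets of Gabra6 and Mbp overlap throughout.

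Of 61 genes in the granule, Purkinje, interneuron, and unipolar brush and deep nuclear lists, 1 was called higher and 0 lower, near the 1.68% of all genes called higher. The median log2 change was −0.03 against 0.02 for all genes, or 0.01 against 0.04 without IH replicate 3 at 1:30. That gene was Grin2c, the NMDA receptor subunit typical of mature granule cells (chromosome 11, 115249169 to 115267243, minus strand). It was at 15.3 to 93.7 TPM in normoxia (median 39.7) and at 6.12 to 197 TPM in IH (median 56.5), and the ranges overlapped within each replicate number. The log2 change was 0.61 ± 0.18 SE (limma adjusted p = 0.0147). It was 1.15 in replicate 1, 1.05 in replicate 2 and −0.39 in replicate 3, and these differed (limma adjusted F p = 0.0111). Without IH replicate 3 at 1:30 the value in replicate 3 was −0.16 and the F p 0.0185, and with the correction for GC content and length the F p was 0.149. Grin2c lost its call in 12 of 56 fits without 1 library or 1 time, where its change ran from 0.54 to 0.70. The libraries concerned were normoxia replicate 1 at 1:30 and 4:30, normoxia replicate 2 at 1:30, 7:30 and 16:30, and IH replicate 1 at 1:30, 10:30, 13:30 and 19:30.

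The granule cell list as a whole moved with the replicate number. Its 19 members had median log2 changes of 0.08 and 0.17 in replicates 1 and 2. In replicate 3 the median was −0.31, and 1 of the 19 was above 0, against 4554 of all 10385 genes. IH replicate 3 at 1:30 held 499 TPM of these transcripts, where the median of its set was 3238 TPM. These sums are of TPM as deposited, which share a fixed total. In IH replicate 3 at 1:30 the gene model Gm19220 alone held 452062 TPM, where the median of the set was 19377.5 TPM. The TPM of this library were divided by 0.51 before testing, where the median divisor of the set was 0.96. The drop in the sum is therefore larger than on the scale that was tested. Without that library the replicate 3 median was −0.06, with 5 of the 19 above 0, against 0.03 and 5947 of all genes. In replicate 1 the called genes were the zinc finger factor Zic4, Grin2c, the vesicular glutamate transporter Slc17a7 and the neuronal splicing factor Rbfox3, with changes of 0.63, 1.15, 1.10 and 0.75. In replicate 2 Grin2c, Slc17a7 and Rbfox3 were called again, at 1.05, 0.97 and 0.84. The genes that define granule cells best were not among them. Gabra6 changed by −0.35 ± 0.19 (limma adjusted p = 0.212), Neurod1 by −0.09 ± 0.13 (limma adjusted p = 0.687) and Cbln3 by −0.11 ± 0.13 (limma adjusted p = 0.605).

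Purkinje cell genes gave 0 calls of 22 over all libraries by limma, with 1 at an adjusted p of 0.05 or less. Their median change was 0.02, 0.22 and −0.35 in replicates 1, 2 and 3. IH replicate 3 at 1:30 held 2330 TPM of these transcripts, where the median of its set was 9824 TPM. These sums too are of TPM as deposited, before the scaling. Without that library the replicate 3 median was −0.06. Homer3, a postsynaptic scaffold abundant in Purkinje cells, was called in replicate 1 (0.82) and replicate 2 (0.98) and was at −0.33 in replicate 3, or −0.05 without IH replicate 3 at 1:30. Icmt, which methylates prenylated proteins, was called in replicate 2 (1.07), and the transcription factor Foxp2 (−1.25) and the Notch ligand Dner (−0.69) were called lower in replicate 1. Pcp2 changed by 0.24 ± 0.19 (limma adjusted p = 0.395), Calb1 by −0.12 ± 0.13 (limma adjusted p = 0.549) and Car8 by −0.21 ± 0.16 (limma adjusted p = 0.378).

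Of 12 inhibitory interneuron genes, limma called 0, and 10 of them were below 0. Gad1, the GABA-synthesising enzyme, had a median of 195 TPM in normoxia and 164 TPM in IH. Its log2 change of −0.50 ± 0.17 had a limma adjusted p of 0.0374 but was smaller than 1.5-fold, and its values in replicates 1, 2 and 3 were −0.87, −0.21 and −0.44. Gad1 is also made by Purkinje cells. Ptprk, a receptor phosphatase, changed by −0.48 ± 0.10 (limma adjusted p = 0.00116), with −0.86, −0.51 and −0.06 by replicate number. The 9 genes of unipolar brush cells and deep nuclei had 0 calls, with changes between −0.30 and 0.26.

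Of 24 postsynaptic scaffold and adhesion genes, 3 rose and 0 fell, where 1.68% of all genes were called higher and 0.867% lower. The median change was 0.09. With the correction for GC content and length, 0 of the 24 were called. Their median GC content was 55.1%, against 50.9% over all genes. Dlgap3, a partner of PSD-95 and of the Shank proteins, had medians of 14.4 TPM in normoxia and 28.5 TPM in IH (log2 0.75 ± 0.17 SE, limma adjusted p = 0.00236). Shank3, the scaffold that ties receptors to actin, had medians of 18.3 and 29.3 TPM (log2 0.68 ± 0.19 SE). Nlgn2, the neuroligin of inhibitory synapses, had medians of 14.1 and 23.1 TPM (log2 0.65 ± 0.17 SE). All 3 had ranges that overlapped within each replicate number. Their log2 changes in replicates 1 and 2 lay between 0.96 and 1.35, and those in replicate 3 were −0.20, −0.27 and −0.21. The F test of that difference gave limma adjusted p-values of 0.0135, 0.0398 and 0.0410. Without IH replicate 3 at 1:30 these were 0.0195, 0.0510 and 0.0743, the replicate 3 changes were 0.06, −0.25 and 0.00, and with the correction for GC content and length the F p-values were 0.260, 0.281 and 0.207. Nlgn2 lost its call without IH replicate 1 at 1:30 (0.58) and without the 4:30 or the 7:30 libraries, and Shank3 without the 4:30 libraries (0.60). Shank1 (0.96) and Nrxn2 (0.67) were called as well in replicate 1, and Nrxn2 (0.92) in replicate 2.

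Of 11 ionotropic glutamate receptor genes, Grin2c and Grik5 rose, where 1.68% of all genes were called higher. With the correction for GC content and length, 0 of the 11 were called. Grik5, a high-affinity kainate receptor subunit, was at 13.6 to 43.2 TPM in normoxia (median 21.3) and at 8.50 to 63.7 TPM in IH (median 35.3). In replicates 1 and 2 the treatments did not overlap, and in replicate 3 they did. The log2 change was 0.66 ± 0.12 SE (limma adjusted p = 0.000158), with 0.94, 1.00 and 0.02 by replicate number. The obligatory NMDA subunit Grin1 was called in replicate 1 (0.63) and replicate 2 (0.79). The median of the 11 genes was 0.01 over all libraries, and 0.19, 0.02 and −0.28 by replicate number, the last being −0.16 without IH replicate 3 at 1:30. The 15 GABA and glycine receptor genes had 0 calls over all libraries and a median of −0.06, and Gabbr1, a GABA-B receptor subunit, was called in replicate 1 (0.79).

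The 26 potassium channel genes had median log2 changes of 0.26, 0.17 and −0.17 in replicates 1, 2 and 3, and 5 of the 26 were above 0 in replicate 3. Without IH replicate 3 at 1:30 the last median was 0.02, with 14 of the 26 above 0. Kcnh2, a voltage-gated channel, Kcnk3, a leak channel, and Kcnmb4, an accessory subunit of the BK channel, were called higher in replicate 1, at 0.68 to 0.83, and in replicate 2, at 0.71 to 0.73. Kcnmb4 had medians of 72.5 TPM in normoxia and 108 TPM in IH, and in replicate 3 it was at −0.11, or 0.16 without IH replicate 3 at 1:30. Over all libraries its log2 change of 0.48 ± 0.14 SE had a limma adjusted p of 0.0176 and stayed under 1.5-fold. Kcna6, a Kv1 channel gene, was called in replicate 2 (0.73). Sodium channel genes (10) had 0 calls over all libraries, although Sptbn4, the spectrin of the axon initial segment, was at 1.10 in replicate 1, 1.02 in replicate 2 and −0.36 in replicate 3, the last being −0.06 without IH replicate 3 at 1:30. The 12 voltage-gated calcium channel genes, 22 genes of calcium stores and buffers, and 8 sodium-potassium pump genes had 0 calls over all libraries, with 0, 1 and 1 at a limma adjusted p of 0.05 or less.

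Genes of vesicle release had 0 calls over all libraries (31 genes, 3 at a limma adjusted p of 0.05 or less). Vamp2, the vesicle SNARE, changed by 0.49 ± 0.12 (limma adjusted p = 0.00509), with medians of 202 TPM in normoxia and 331 TPM in IH. Complexin 2 (Cplx2) changed by 0.45 ± 0.11 (limma adjusted p = 0.00504). Unc13a (0.96), Rims3 (0.71), Syt7 (0.64), Vamp2 (0.63) and Slc17a7 were called in replicate 1. Vamp2 (0.87), Cplx2 (0.74), Syt2 (0.64) and Slc17a7 were called in replicate 2. The list's medians were 0.07, 0.23 and −0.22 in replicates 1, 2 and 3, the last being 0.03 without IH replicate 3 at 1:30. Of 15 immediate early genes, Junb rose (1.68% of all genes were called higher), from a median of 6.73 to 10.3 TPM. Its log2 change of 0.59 ± 0.11 SE (limma adjusted p = 0.000155) kept its sign in replicates 1, 2 and 3, at 0.53, 0.94 and 0.29. It sits at the edge of 1.5-fold and was called in 31 of 56 fits without 1 library or 1 time, where it ran from 0.55 to 0.64.

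**Figure D5:**
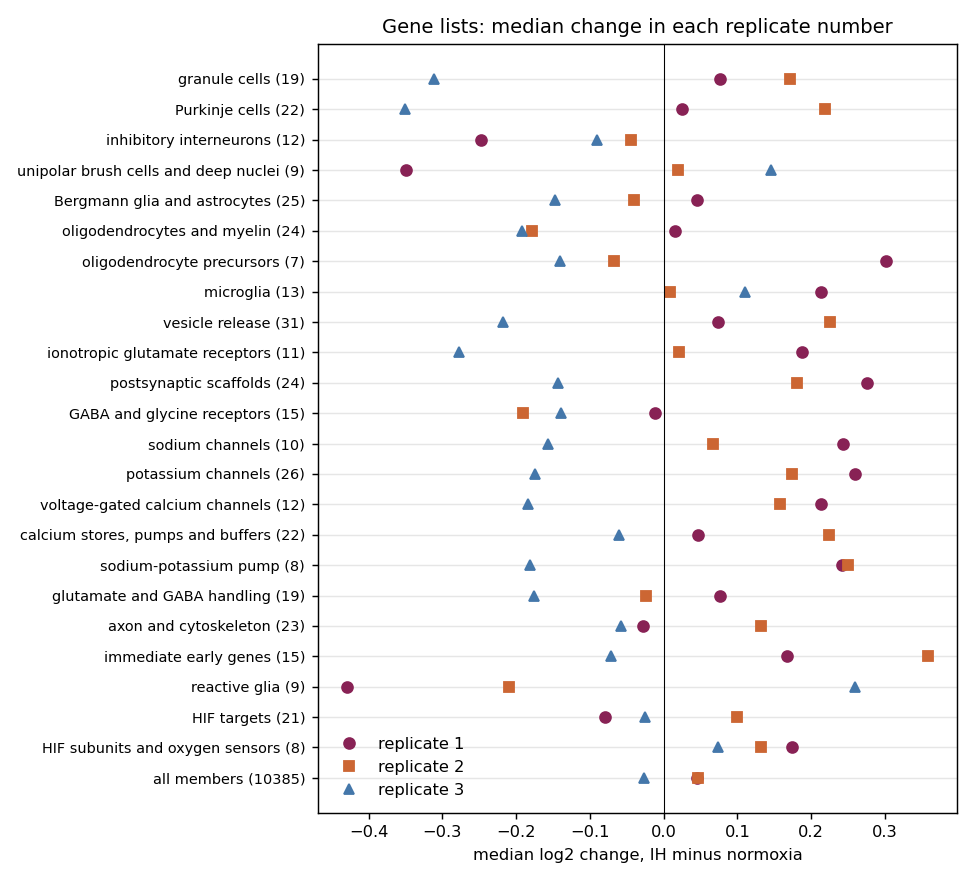
Median log2 change (IH minus normoxia) of the genes of each list within replicates 1, 2 and 3, with the number of genes in parentheses. Replicate 3, with all 8 libraries of each treatment, lies below 0 for most neuronal and synaptic lists, for instance at −0.31 for granule cells, which was −0.06 without IH replicate 3 at 1:30, while replicates 1 and 2 lie above 0 for the scaffold and potassium channel lists.

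Across all 293 genes of the function lists, 7 rose and 0 fell (1.68% of all genes were called higher), and 34 had a limma adjusted p of 0.05 or less. In replicate 1, 25 were called higher and 5 lower, where 6.42% and 2.99% of all genes were. In replicate 2, 24 were called higher and 0 lower, where 5.67% and 1.29% of all genes were. With each library corrected for GC content and length, 1 gene of these lists was called, Higd1a. Grin2c, Grik5, Dlgap3, Shank3, Nlgn2 and Junb were then not called, with log2 changes between 0.28 and 0.42. These 6 genes are 59.9% to 64.3% GC, above the median of 50.9% over all genes. The part of GC content in the difference between treatments was not tested. Without the 10 libraries that held over 3000 TPM of heart transcripts, Dlgap3 (0.66) and Junb (0.59) were called, while Grin2c, Grik5, Shank3 and Nlgn2 were not, at 0.48 to 0.56.

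For 67 genes of astrocytes, oligodendrocytes, their precursors and microglia the median change was −0.08, or −0.02 without IH replicate 3 at 1:30. Of these 67, 0 rose and 1 fell, against 0.867% of all genes called lower. That gene was Ly86, a partner of a Toll-like receptor relative in microglia, at 9.46 to 71.8 TPM in normoxia (median 14.2) and 6.76 to 21.1 TPM in IH (median 10.4). The ranges overlapped within each replicate number. Its log2 change was −0.65 ± 0.19 SE (limma adjusted p = 0.0137), with −1.10, −0.95 and 0.10 by replicate number, the last being −0.13 without IH replicate 3 at 1:30. It lost its call without normoxia replicate 1 at 7:30 (−0.57), without normoxia replicate 2 at 7:30 (−0.58), and without the 4:30 or the 7:30 libraries.

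The complement gene C1qa, the other microglial gene of size, moved the opposite way. It was at 20.4 to 56 TPM in normoxia (median 33.8) and at 31.9 to 68.6 TPM in IH (median 51.8), and normoxia replicate 3 (43.5 to 56 TPM) lay with the IH libraries. Its log2 change of 0.56 ± 0.13 had a limma adjusted p of 0.00258 and stayed under 1.5-fold. By replicate number it was 0.60, 0.76 and 0.31. C1qb (0.61) and the adaptor Tyrobp (0.64) were called with it in replicate 1. Cx3cr1 and P2ry12, which mark resting microglia, changed by −0.17 ± 0.11 and −0.17 ± 0.16 (limma adjusted p = 0.281 and 0.492).

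Of 25 genes of Bergmann glia and astrocytes, limma called 0, with 0 at an adjusted p of 0.05 or less, and 18 were below 0. Their median log2 change was −0.08, or 0.00 without IH replicate 3 at 1:30. In replicate 1, 14 of the 25 were above 0. In replicate 3, 4 were above 0 with all libraries and 14 without IH replicate 3 at 1:30. Slc1a3, the glutamate transporter of Bergmann glia, had medians of 260 TPM in normoxia and 226 TPM in IH (log2 −0.26 ± 0.12, limma adjusted p = 0.126). The water channel Aqp4 changed by −0.17 ± 0.16 (limma adjusted p = 0.5) and Gfap by −0.10 ± 0.17 (limma adjusted p = 0.732). Sox9, a glial transcription factor, was called lower in replicate 1 (−0.64). The 9 genes of reactive glia had medians of −0.43, −0.21 and 0.26 by replicate number (the last 0.06 without IH replicate 3 at 1:30) and 0 calls over all libraries.

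The 24 oligodendrocyte and myelin genes had 0 calls over all libraries and 0 at a limma adjusted p of 0.05 or less. Mbp ranged from 899 to 3508 TPM in normoxia (median 1660) and from 113 to 7808 TPM in IH (median 2028), a wider spread in IH. Its log2 change was 0.13 ± 0.21 (limma adjusted p = 0.720) and that of Mog was −0.12 ± 0.16 (limma adjusted p = 0.645). In replicate 1, Nfasc, which builds the node of Ranvier, was called higher (0.72). In replicate 2, Aspa, which breaks down N-acetylaspartate, was called lower (−0.66). Of 7 genes of oligodendrocyte precursors, C1ql1 was called in replicate 1 (1.14).

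Of the 8 genes of HIF subunits and oxygen sensors, limma called 0 over all libraries, while Egln2 was called in replicates 1 and 2. Egln2, which encodes the prolyl hydroxylase PHD1 and lies on chromosome 7 from 27158658 to 27166802 on the minus strand, was at 58.1 to 120 TPM in normoxia (median 71.3) and at 39.4 to 202 TPM in IH (median 107). The ranges overlapped within each replicate number. Its fold change was 1.42 (log2 0.51 ± 0.11 SE, limma adjusted p = 0.000774), under the 1.5-fold limit, and by replicate number the log2 change was 0.59, 0.75 and 0.18. With the correction for GC content and length it was 0.22 (limma adjusted p = 0.0834). Its set medians were 70.7, 61.4 and 90.7 TPM in normoxia and 104, 114 and 100 TPM in IH. Hif1an, the asparaginyl hydroxylase that blocks HIF activity, changed by 0.28 ± 0.08 (limma adjusted p = 0.0122). The HIF subunits Hif1a (−0.18 ± 0.09), Epas1 (0.06 ± 0.11), Arnt (0.19 ± 0.12) and Arnt2 (−0.02 ± 0.14) and the hydroxylase Egln1 (0.17 ± 0.07) had limma adjusted p-values of 0.106 or more. Egln3 and Hif3a averaged under 5 TPM.

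Of 21 known HIF target genes, limma called 0 over all libraries, 3 had an adjusted p of 0.05 or less, and 9 were above 0. Ddit4, which restrains mTOR signalling, had medians of 23.8 TPM in normoxia and 39.5 TPM in IH (log2 0.48 ± 0.11 SE, limma adjusted p = 0.00154). It was called in replicate 1 (0.72) and replicate 2 (0.66) and was at 0.06 in replicate 3. Higd1a, a mitochondrial protein induced by low oxygen, had medians of 114 and 180 TPM (log2 0.56 ± 0.15 SE, limma adjusted p = 0.00804), with 0.65, 0.68 and 0.33 by replicate number.

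Changes followed the GC content of the transcript in replicates 1 and 2. From the GC-poorest to the GC-richest of the 5 groups the median log2 change went from −0.12 to 0.33 in replicate 1 and from −0.19 to 0.39 in replicate 2, and from −0.01 to −0.06 in replicate 3. Of the 174 genes called higher over all libraries, 114 lay in the richest group, and of the 90 called lower, 40 lay in the poorest. The median GC content was 58.6% in the higher and 45.6% in the lower genes, and 58.7% in the genes that were higher in normoxia replicate 3. With the correction for GC content and length, 132 of 10275 genes were called over all libraries, 73 higher and 59 lower, and 111 of them were among the 264. The GC difference between libraries and the treatment cannot be told apart in replicates 1 and 2.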

How the data were processed

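Poly(A) RNA of each cerebellum was sequenced with a directional kit; the authors quantified reads with kallisto against Ensembl release 102 and deposited TPM per gene, and mm10 is the build in the submitters' processing notes. The authors ran DESeq2 on estimated counts, which are not used here. With TPM alone the depth behind each value is unknown. Libraries sum to 989211 to 999188 TPM. TPM was scaled by the median of ratios, taken as log2 with a pseudocount of 0.5, so fold changes of low genes are understated, and 14892 genes of at least 1 TPM were fitted with limma 3.58.1 in R 4.3.3 (intensity trend, 2-sided, Benjamini-Hochberg over all of them). Treatment was the term for all libraries; the 6 sets of treatment by replicate number were the terms for the other tests. Replicates are the samples of a time point, and neither of these fits held a term for time. The p-values therefore measure the spread between libraries of a treatment or set across the 8 times, where mouse and time are mixed. Tables were made with Python 3.11.15 and pandas 2.3.3. Steps were tested on simulated data. GC content and gene positions came from GENCODE M21 (GRCm38); the correction regressed each library's deviations on GC content and length.

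The members, the gene lists and the contrast of replicate 3 with replicates 1 and 2 were chosen with earlier results of these data known. Named were the 10 largest rises and falls called with 1 direction in all replicate numbers, up to 4 called genes of each list (otherwise the 2 with the smallest p), the 5 genes of smallest F p in each direction, the defining genes, Egln2 and the HIF subunits, leaving out predicted gene names, which hold 98 of the 264 calls. Other genes given for a single replicate number, the satellite models and the 7 added lists were chosen after their values were seen. Some named genes and the counts that turn on them are not reported here.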

Additional observations from a re-analysis of the deposited data

Results flagged for a closer look

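Of 66 comparisons of 8 libraries within a set, 16 held a library farther from the rest than the 95% limit of Dixon's test for 8 samples. For independent, normally distributed values, chance passes about 1 in 20 such groups. Several of these measures are skewed sums of TPM, and the measures share libraries, so 16 of 66 cannot be set against that share. The summed TPM of the 12 heart genes stood out in normoxia replicate 3 at 4:30 (5880), IH replicate 1 at 10:30 (8646), IH replicate 2 at 1:30 (5261) and IH replicate 3 at 1:30 (14407). Summed skeletal muscle transcripts did so in normoxia replicate 3 at 19:30 (13463 TPM) and IH replicate 3 at 1:30 (1971 TPM). Pituitary and hypothalamic hormone transcripts reached 6379 TPM in normoxia replicate 3 at 16:30, 161.5 TPM in IH replicate 1 at 22:30 and 308.1 TPM in IH replicate 2 at 19:30. Summed myelin transcripts reached 14465 TPM in IH replicate 1 at 22:30, and brainstem transcripts 167.4 TPM in normoxia replicate 2 at 1:30 and 105.2 TPM in IH replicate 2 at 22:30. The mean correlation with the other libraries was low in normoxia replicate 2 at 7:30 (0.869) and IH replicate 3 at 1:30 (0.762). The log2 contrast of GC-rich with GC-poor genes was 0.62 in IH replicate 1 at 10:30 and −0.16 in IH replicate 3 at 1:30. The part of these libraries in each result was not tested beyond the counts without them.

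The change with IH differed between replicate numbers for 477 genes by the limma F test. The limma adjusted F p-values of the 5 clearest rises in replicates 1 and 2 were 4.89e-06 for Lypla2, 4.16e-05 for Crlf2, 0.000120 for Samd1, 0.000360 for Ldb1 and 0.000364 for Nr2f6. Those of the 5 clearest falls were 0.000892 for Fgfr1op2, 0.00105 for Pdcd4, 0.00107 for Rpp30, 0.00150 for Kpna2 and 0.00181 for Plagl1.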

How the results depend on the processing

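The 264 genes called over all libraries became 280 and 205 with pseudocounts of 0.1 and 2, 237 with TPM as deposited, 268 with only genes of at least 5 TPM fitted, 218 without a filter, 273 with time as a term, 374 with library weights and 262 with heart transcripts as a term. The last and the settings that follow were chosen after seeing the data. Without libraries over 3000 TPM of heart transcripts 118 genes were called, with the times 1:30 to 10:30 alone 65, with 13:30 to 22:30 alone 169, and with the GC and length correction 132 (55.3% higher, against 65.9%). Without 1 replicate number the count ran from 20 to 1085, without 1 library from 211 to 370 and without 1 time from 177 to 342. The replicate numbers do not pair the samples: 24 same-number pairs of deviations correlated at a median of −0.01, from −0.51 to 0.46, with 7 above 0.1. The replicate block gave 254 genes. Within replicate 1 (977), 640 genes were called with TPM as deposited, 493 without the heart-rich libraries and 647 with the correction, and within replicate 2 (723) 247 with the correction. Normoxia replicate 3 against 1 and 2 (523) gave 311 with TPM as deposited and 185 with the correction, and IH replicate 3 gave 2 with the heart term. The F test (477) gave 86 with TPM as deposited, 740 with time, 1288 with the heart term and 85 with the correction. The 37 called named genes kept their sign under these settings, while Samd1, which was not called over all libraries, went to −0.01 with the correction. Of 37 called named genes, 13 were called without replicate 1, 4 without replicate 2, 37 without replicate 3 and 21 with the correction. The cause of these shifts was not tested. Depth could not be weighed, since no counts were used.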

Other observations

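Other cell and RNA classes gave few calls over all libraries, where 1.68% of all genes were called higher and 0.867% lower. Of 85 cytosolic ribosomal protein genes, Rpl22l1 and Rps14 rose and Rpl37rt fell, with log2 changes of 0.69, 0.60 and −0.66. These genes have near-identical copies, so their values are uncertain. Rps14 was called in 42 of 56 fits without 1 library or 1 time, Rpl37rt in 54 (not without IH replicate 1 at 1:30, at −0.58, or the 1:30 libraries) and Rpl22l1 in 55 (not without the 10:30 libraries, at 0.55). In replicate 3, 79 of the 85 were above 0, with a median of 0.20 and none called, and 82 of the 85 without IH replicate 3 at 1:30, with a median of 0.27. Of 24 nuclear long RNA and splicing genes, Clk1, a splicing kinase, fell, from a median of 140 TPM in normoxia to 108 TPM in IH, with −0.81, −0.75 and −0.33 by replicate number. It lost its call without IH replicate 2 or 3 at 1:30 (−0.58 each) and without the 1:30 or the 22:30 libraries. Choroid plexus genes (9, 0 called) were all below 0 over all libraries, with a median of −0.34. By replicate number their medians were −0.61, −0.40 and 0.18. In replicate 3, 6 of the 9 were above 0, or 8 without IH replicate 3 at 1:30. Their summed level ran from 110 to 6227 TPM in normoxia and from 61.3 to 4651 TPM in IH. Of 15 endothelial and mural genes, 0 were called, 4 were above 0 and 11 below, with a median of −0.10. Their medians by replicate number were −0.24, −0.07 and 0.20, the last being −0.02 without IH replicate 3 at 1:30. The tight junction gene Cldn5 had the highest change of this list. It was higher in IH at 8 of 8 times, with medians of 76.3 and 119 TPM and a log2 change of 0.54 ± 0.14 (limma adjusted p = 0.00625), under 1.5-fold. The 7 blood genes, 16 clock genes and 16 heat shock and cold-inducible genes had 0 calls by limma, with 0, 0 and 1 at an adjusted p of 0.05 or less. The 13 mitochondrially encoded genes had 0 calls over all libraries, with medians of 0.17, −0.48 and 0.07 by replicate number, the last being −0.11 without IH replicate 3 at 1:30. The heart genes, 12 in number, had a median change of −2.07, −1.23 and 1.29 by replicate number and 0 calls, the last being 0.70 without IH replicate 3 at 1:30.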
